A study of Mus musculus with 40 samples.

Results

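The phagocyte effector genes described here are Cybb, Itgb2, Fcer1g, Mpeg1, Vav1, Srgn and Ms4a6d, 7 genes that macrophages use to engulf, kill and signal. Members were taken as the spots whose single gene symbol in the platform annotation, or its current form, is one of these names. Each of the 7 genes had 1 spot, out of 3420 spots with a single gene symbol and 5760 spots in all. RNA of mouse cells and tissues had been copied into radioactive cDNA and hybridized to nylon filters, with 40 arrays in 14 groups.

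The primary phagocytes were macrophages washed from the peritoneal cavity and kept 24 h on plastic, so that non-adherent cells were lost (3 samples). The macrophage lines were Raw 264 (3) and J774 (2), both grown at low density. From inguinal white fat came the stroma-vascular fraction, of which the cells adherent 24 h after plating were used (3), and adipocytes isolated with collagenase (3). The other groups were 3T3-F442A adipocytes after 7 days with rosiglitazone (3), C2C12 muscle cells after 7 days of differentiation (2) and in proliferation (3), tibialis muscle (2), liver (2), the ZIN40 embryonic stem cell line without the cytokine LIF (3) and with it (3), and proliferating cells of the mesenchymal line C3H-10T1/2 (3). The preadipocyte lines, used as a baseline, were 3T3-L1 (2), 3T3-F442A, Ob1774 and Hgfu (1 each), all at low density. No strain, sex, age or treatment other than rosiglitazone and LIF is given, and apart from the preadipocyte lines no label states whether the samples within a group are independent cultures or animals. The p-values therefore rest on a spread that may be technical.

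Phagocytes recognise opsonised particles through Fc receptors and complement-binding integrins, rearrange actin to engulf them, and kill the cargo with superoxide, pore-forming proteins and granule contents. Resident macrophages of the peritoneum and of fat carry this machinery, and most of these genes are also active in other leukocytes. Cybb encodes the catalytic subunit of the phagocyte NADPH oxidase, Itgb2 the shared beta chain of the leukocyte integrins, and Fcer1g the signalling adaptor chain of several Fc receptors. Mpeg1 encodes a pore-forming protein of the perforin family, Vav1 a guanine nucleotide exchange factor of blood cells, Srgn the granule proteoglycan core protein serglycin, and Ms4a6d a membrane-spanning protein of the MS4A family.

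Levels are quantile-normalized spot intensities given as multiples of the median spot, so 1 is the brightness of the middle spot of every array. Intensities appear to hold background, since the lowest value of 37 of the 40 arrays was 7675 or more, and levels of different genes come from different probes and were not set against each other. Fold changes are differences of log2(intensity + 36370), which understate the change of dim spots. The 3 arrays of ZIN40 cells without LIF hold values with decimals and a wider spread than the other 37, and they are in none of the groups tested against each other here, though they share the fit and are counted among the other samples. Of 18 macrophage identity genes looked for, 1 was measured, the scavenger receptor gene Cd163, and it did not mark the peritoneal macrophages: its level was 1.05 to 1.38 in macrophages, 2.38 to 2.55 in J774 and 0.803 to 1.86 in preadipocyte lines. The label of the macrophages could therefore be checked with that gene alone.

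Peritoneal macrophages had the highest group level of Cybb, Itgb2, Mpeg1, Srgn and Ms4a6d, and came after Raw 264 for Fcer1g. All 3 macrophage samples lay above all 32 samples of the 11 groups that are neither macrophages nor macrophage lines for 6 of the 7 genes, and 0 of 3 did for Vav1. Among the 5 samples of the macrophage lines, 5 lay above those 32 samples for Itgb2 and for Fcer1g, 2 for Cybb, 1 for Ms4a6d and 0 for Mpeg1, Srgn and Vav1. The share of all 5760 spots with such counts against the 32 samples was not computed. For the macrophages it is at most 4.38%, the share whose macrophage samples all exceeded the preadipocyte samples, which are among the 32. For all 5 samples of the lines it is at most 2.55%, the share whose Raw 264 samples all exceeded the preadipocyte samples. In RNA from many cells, fewer phagocytes and less RNA of a gene per phagocyte cannot be told apart.

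**Figure D1:**
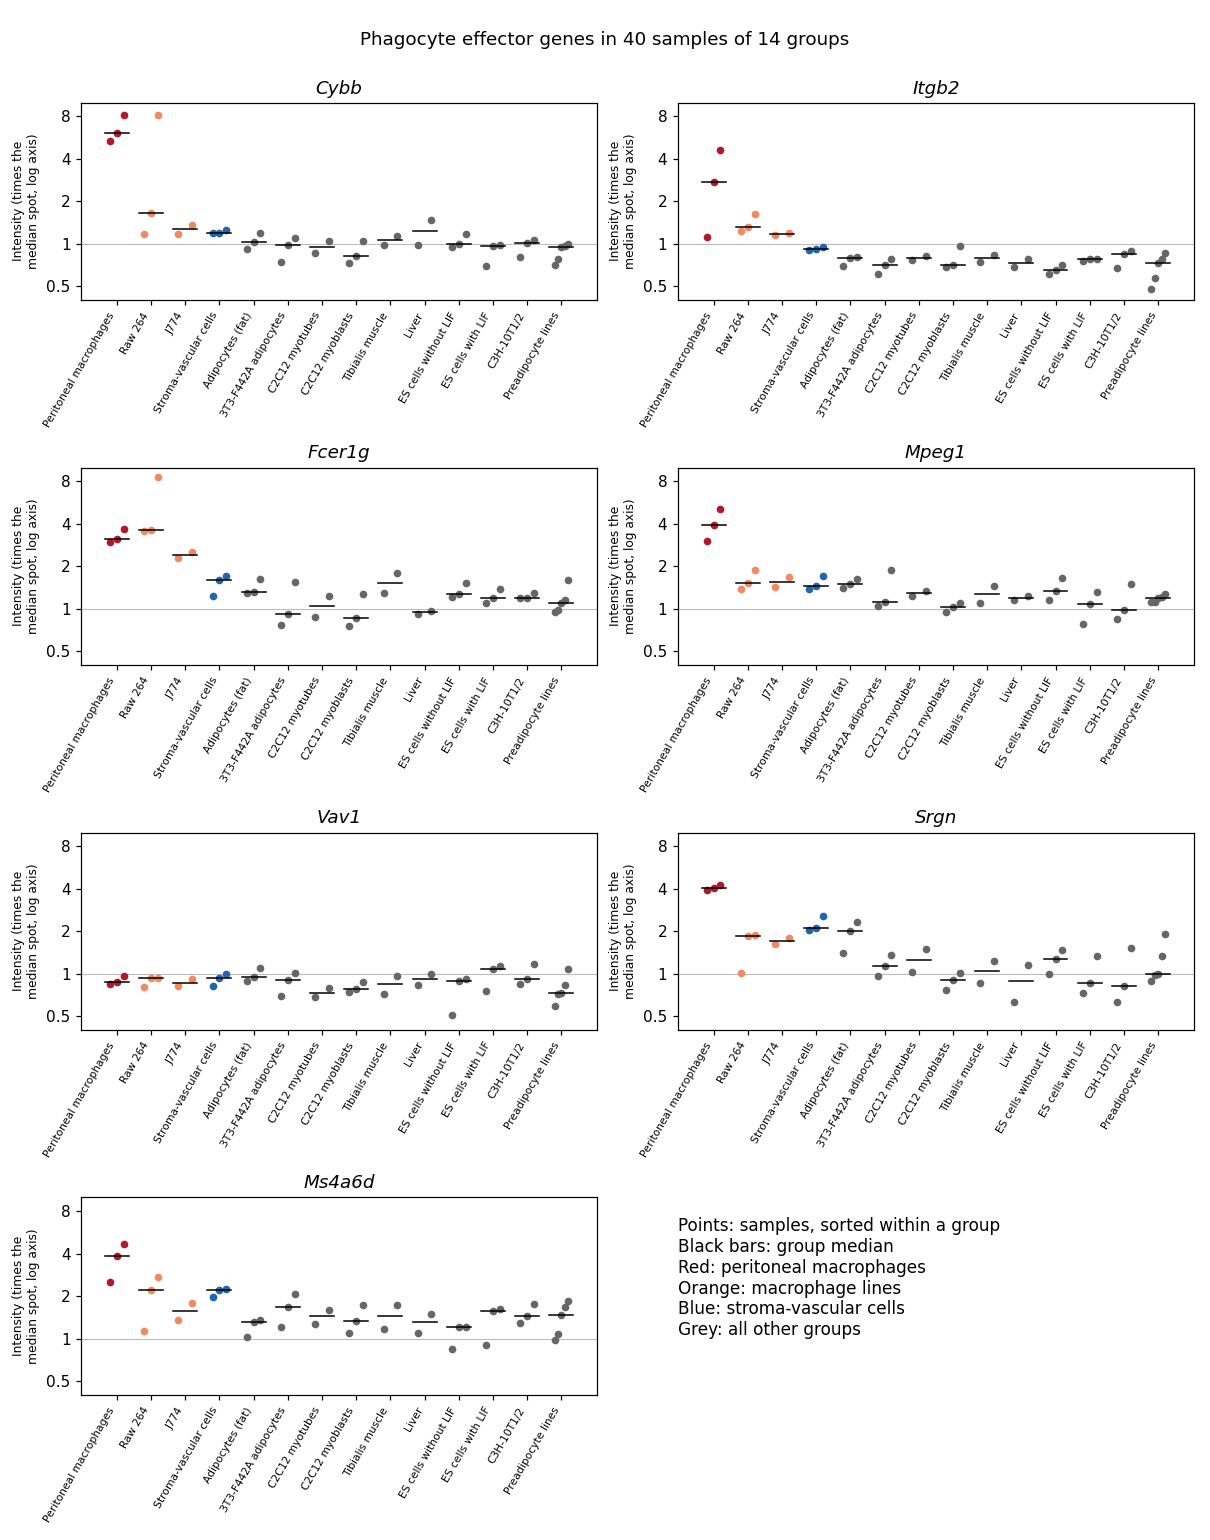
Intensity of each gene in all 40 samples (points) by group, as multiples of the median spot on a log axis, with group medians as black bars. Peritoneal macrophages (red) stand above every sample of the other 11 groups for 6 genes, the macrophage lines (orange) do so in all 5 samples for Itgb2 and Fcer1g, and Vav1 is flat across the groups. The share of all spots that stand apart in this way was not computed.

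The promoters are shown for Cybb, which had the largest macrophage fold changes, for Mpeg1, called in all 4 macrophage comparisons, and for Vav1, called in none. They are the 250 bases before an annotated start in RefSeq's GRCm38.p6 annotation, and 5 of the 7 genes have a promoter entry. The start used for Cybb lies inside the annotated span of the gene, chrX:9435252-9487766, so it is not the outermost start. Capitals mark 2 motifs searched on both strands: GAGGAAGT, a core bound by the myeloid ETS factor PU.1, and GAAANNGAA, a pair of interferon-response half-sites bound by IRF factors. The motifs do not overlap in these promoters. The Cybb promoter lies at chrX:9469325-9469574 on the minus strand, that of Mpeg1 at chr19:12460520-12460769 on the plus strand and that of Vav1 at chr17:57278850-57279099 on the plus strand.
Cybb: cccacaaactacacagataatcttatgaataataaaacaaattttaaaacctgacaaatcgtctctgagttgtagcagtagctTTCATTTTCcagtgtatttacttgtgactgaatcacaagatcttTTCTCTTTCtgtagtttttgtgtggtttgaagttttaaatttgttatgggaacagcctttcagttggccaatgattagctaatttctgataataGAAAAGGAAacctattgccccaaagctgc
Mpeg1: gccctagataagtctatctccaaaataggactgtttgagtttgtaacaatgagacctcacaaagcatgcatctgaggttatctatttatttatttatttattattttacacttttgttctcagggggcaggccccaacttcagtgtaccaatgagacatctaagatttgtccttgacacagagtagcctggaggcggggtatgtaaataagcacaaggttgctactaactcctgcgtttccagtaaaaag
Vav1: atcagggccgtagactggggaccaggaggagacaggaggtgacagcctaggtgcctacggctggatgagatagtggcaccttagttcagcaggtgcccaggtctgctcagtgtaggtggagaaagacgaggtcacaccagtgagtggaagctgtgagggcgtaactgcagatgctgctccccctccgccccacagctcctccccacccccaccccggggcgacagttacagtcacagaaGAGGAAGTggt
Counting back from -1, the base just before the start, GAAANNGAA lies in the Cybb promoter at -167 to -159 and -123 to -115, both on the opposite strand, and at -29 to -21 as written. GAGGAAGT lies in the Vav1 promoter at -11 to -4. The Mpeg1 and Fcer1g promoters hold neither, and 1 of 2 Srgn promoters holds GAAANNGAA at -220 to -212. Of 32851 mouse promoters of this length, 2.44% hold GAGGAAGT and 7.13% hold GAAANNGAA. Among the 5 genes with an entry, the PU.1 core was thus found for Vav1 and the half-site pair for Cybb and Srgn. Only these 2 patterns were searched, so a promoter without them may hold other sequences that these factors bind.

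Cybb, the oxidase gene, had 8.22, 5.35 and 6.09 times the median spot in the 3 macrophage samples. In Raw 264 it had 8.19, 1.18 and 1.66 and in J774 1.17 and 1.36. One Raw 264 sample thus reached the macrophages while the other Raw 264 samples lay below all of them. Stroma-vascular cells had 1.25, 1.20 and 1.18, adipocytes 1.20, 1.03 and 0.910, and the preadipocyte lines 0.709 to 1.00. The highest of the 32 other samples was a liver sample with 1.47. The mean was 6.55 ± 1.49 in macrophages (SD, n = 3) and 3.68 ± 3.92 in Raw 264 (n = 3), and neighbouring groups in the order of levels overlapped down to the lowest, the preadipocyte lines at 0.860 ± 0.140 (n = 4 lines).

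Itgb2, the integrin chain, had 4.65, 1.12 and 2.76 in macrophages, 1.63, 1.24 and 1.32 in Raw 264, and 1.15 and 1.20 in J774. Macrophage replicate 2 lay below all 5 samples of the lines, so these groups overlap. Below them, no Raw 264 sample overlapped J774 and no J774 sample overlapped stroma-vascular cells, which had 0.907, 0.920 and 0.955. Stroma-vascular cells lay above C3H-10T1/2 at 0.669 to 0.891, the next group by mean, but below 1 sample of proliferating C2C12 cells at 0.961. Adipocytes had 0.696, 0.801 and 0.787 and preadipocyte lines 0.478 to 0.856.

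Fcer1g, the Fc receptor adaptor, was the gene for which a line matched the macrophages. It had 2.95, 3.11 and 3.70 in macrophages, 3.53, 8.52 and 3.61 in Raw 264 and 2.52 and 2.29 in J774. Macrophages and Raw 264 overlapped, and J774 lay below both and above all 32 other samples. Stroma-vascular cells had 1.23, 1.61 and 1.70, adipocytes 1.31, 1.63 and 1.30, and preadipocyte lines 0.949 to 1.59. The highest other sample was tibialis muscle replicate 2 with 1.78.

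Mpeg1, the pore-forming gene, had 3.03, 5.05 and 3.90 in macrophages. Raw 264 had 1.86, 1.51 and 1.38 and J774 1.43 and 1.69, inside the range of the 32 other samples, whose highest was 1.87 in a 3T3-F442A adipocyte sample. No macrophage sample overlapped any other group. Stroma-vascular cells had 1.39, 1.69 and 1.44, adipocytes 1.41, 1.62 and 1.49, and preadipocyte lines 1.11 to 1.27.

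Srgn, the serglycin gene, had 3.90, 4.28 and 4.07 in macrophages, values that lay close together (4.08 ± 0.187, SD, n = 3). Stroma-vascular cells came next with 2.03, 2.57 and 2.09, before adipocytes with 1.40, 2.01 and 2.34. The lines were lower, at 1.84, 1.01 and 1.89 in Raw 264 and 1.80 and 1.63 in J774, and the preadipocyte lines had 0.881 to 1.90, the highest being Hgfu. Apart from the macrophages, each group overlapped its neighbour in the order of levels.

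Ms4a6d had 2.53, 4.68 and 3.87 in macrophages, and the only other sample above any of these was Raw 264 replicate 1. Stroma-vascular cells again came second, with 2.26, 1.97 and 2.22, before Raw 264 with 2.74, 1.13 and 2.22. J774 had 1.36 and 1.77, adipocytes 1.36, 1.02 and 1.31, and preadipocyte lines 0.980 to 1.83. Raw 264 replicate 2 was the lowest of its group for Cybb, Itgb2, Srgn, Vav1 and Ms4a6d and the highest for Fcer1g.

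Vav1, the exchange factor gene, had 0.866, 0.846 and 0.961 in macrophages, 0.934, 0.805 and 0.929 in Raw 264 and 0.915 and 0.812 in J774. The other 32 samples ran from 0.505, in a ZIN40 sample without LIF, to 1.18, so every macrophage value lay inside their range. Group means over 13 groups spanned 0.23 on the log2 scale, against 1.17 to 2.21 for the other 6 genes. The spot lay below the median spot in every macrophage and line sample, and whether it reports Vav1 transcript in any sample was not tested.

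**Figure D2:**
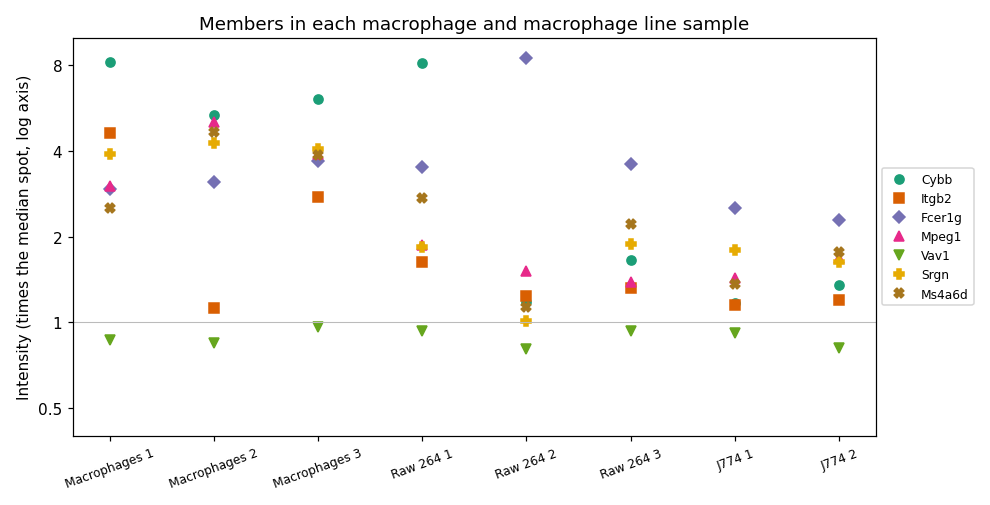
Intensity of the 7 genes in each macrophage, Raw 264 and J774 sample, as multiples of the median spot on a log axis. Cybb is at 8.19 in Raw 264 replicate 1 against 1.18 and 1.66 in the other Raw 264 samples, Fcer1g is at 8.52 in Raw 264 replicate 2, and Itgb2 ranges from 1.12 to 4.65 in the macrophages.

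Macrophages were then set against 4 references in one limma fit, and these comparisons share the same 3 macrophage arrays. Against the preadipocyte lines, 6 of the 7 genes rose, all but Vav1, where 0.556% of all spots were called higher at an adjusted p under 0.05. The log2 fold changes were 2.21 ± 0.26 for Cybb (SE; adjusted p = 8.62e-07), 1.27 ± 0.17 for Itgb2, 1.09 ± 0.18 for Fcer1g, 1.30 ± 0.14 for Mpeg1 (adjusted p = 1.16e-07), 1.31 ± 0.18 for Srgn and 1.11 ± 0.19 for Ms4a6d. The largest adjusted p of these 6 was 0.000419, for Ms4a6d. The median of the 7 genes was 1.27, against -0.00404 over all spots. Every macrophage sample exceeded every preadipocyte sample for 6 genes, as for 4.38% of all spots, and each of the 6 calls held in all 8 fits without 1 sample. Itgb2 was not called when only these groups were fitted (adjusted p = 0.0622), Fcer1g and Ms4a6d were not called without scaling, and Srgn was not called after subtraction of each array's 5th percentile.

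The size of these changes rests on the treatment of background. For Cybb the value was 4.51 after subtraction of each array's 5th percentile, which brings dim spots close to 0, and 1.35 with 4 times the offset. Both had the same direction and passed the test.

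Against adipocytes of fat, 6 of the 7 genes rose, where 0.556% of all spots were called higher. Cybb had 2.04 ± 0.28, Itgb2 1.15 ± 0.18, Ms4a6d 1.17 ± 0.20 and Mpeg1 1.07 ± 0.15, and no call among these 4 was lost in the 6 fits without 1 sample. Fcer1g had 0.90 ± 0.19 (adjusted p = 0.009) and was not called without macrophage replicate 3 (0.83) or adipocyte replicate 3 (0.87). Srgn had 0.89 ± 0.19 (adjusted p = 0.0111) and was not called without macrophage replicate 2 (0.86) or 3 (0.89) or adipocyte replicate 1 (0.74). Every macrophage sample exceeded every adipocyte sample for 6 genes, as for 9.44% of all spots. Without scaling 1 of the 6 calls was kept, that of Cybb. Fcer1g and Srgn were not called with median scaling, Srgn with a floor in place of the offset, Fcer1g, Mpeg1 and Srgn after subtraction of the 5th percentile, and Itgb2 when only these groups were fitted. Of 4 adipocyte genes measured of 11, Retn, the resistin gene, and Pnpla2, which encodes a triglyceride lipase, fell in macrophages with -1.15 ± 0.15 and -0.55 ± 0.11.

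Against stroma-vascular cells, which had also been 24 h on plastic, 4 of the 7 genes rose, where 0.278% of all spots were called higher. They were Cybb with 1.91 ± 0.28 (adjusted p = 0.000153), Mpeg1 with 1.07 ± 0.15 (7.15e-05), Itgb2 with 0.99 ± 0.18 (0.00325) and Fcer1g with 0.84 ± 0.19 (0.0277). Srgn had 0.71 ± 0.19 (adjusted p = 0.124) and Ms4a6d 0.60 ± 0.20 (adjusted p = 0.425), and neither passed. Even so, every macrophage sample exceeded every stroma-vascular sample for 6 genes, Srgn and Ms4a6d among them, as for 7.47% of all spots. The call of Fcer1g was lost in each of the 6 fits without 1 sample, at 0.75 to 0.90, and without macrophage replicate 1 that of Itgb2 was lost as well, at 0.63 (adjusted p = 0.0598). After subtraction of the 5th percentile the values were larger, 3.20 ± 0.64 for Cybb, and 0 of 7 genes passed, as did 0 of all 5760 spots. Median scaling left Cybb and Itgb2 called and no scaling left Cybb alone. When only these groups were fitted, Srgn was called (adjusted p = 0.0152) and Itgb2 was not (adjusted p = 0.323).

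**Figure D3:**
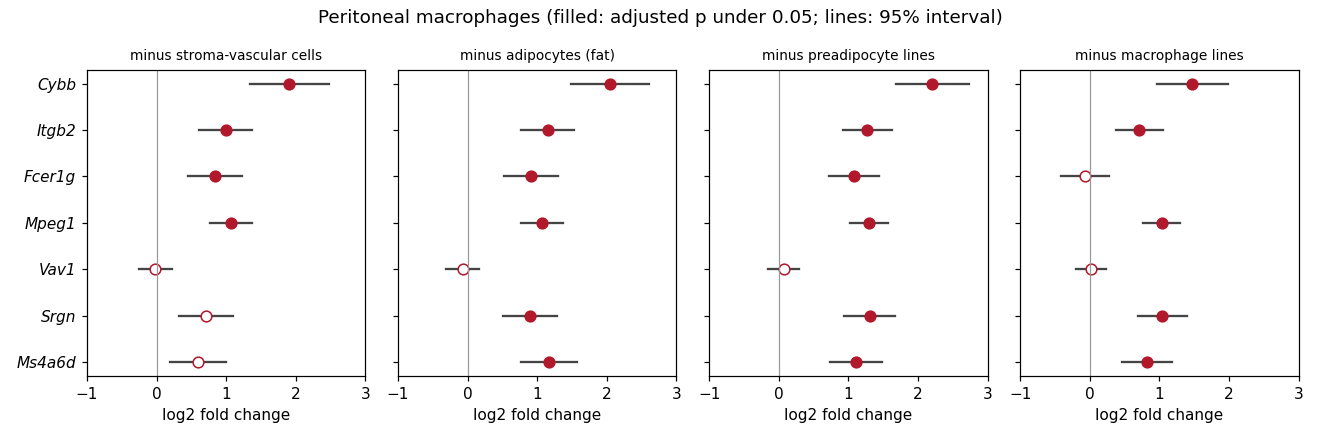
Log2 fold changes of the 7 genes in peritoneal macrophages minus stroma-vascular cells, adipocytes, preadipocyte lines and the mean of both macrophage lines, with 95% intervals; filled points passed at an adjusted p under 0.05. Vav1 lies close to 0 in all 4 panels, from -0.07 to 0.07, and Fcer1g at -0.07 against the lines.

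Against the mean of Raw 264 and J774, 5 of the 7 genes rose in primary macrophages, where 1.63% of all spots were called higher. Cybb had 1.47 ± 0.25 (adjusted p = 0.000493), Mpeg1 1.03 ± 0.13 (9.31e-06) and Srgn 1.04 ± 0.17 (0.000404), and these calls held in all 8 fits without 1 sample, though Cybb's was lost in a fit of these groups alone (adjusted p = 0.111). Ms4a6d had 0.82 ± 0.18 and Itgb2 0.71 ± 0.17, and Fcer1g had -0.07 ± 0.17 with a 95% interval of -0.42 to 0.28. Every macrophage sample exceeded every line sample for 2 genes, Mpeg1 and Srgn, as for 6.28% of all spots. Itgb2 was not called without macrophage replicate 1 (0.35) or 3 (0.66) or J774 replicate 1 (0.70). Ms4a6d was not called without macrophage replicate 2 (0.66) or 3 (0.77) or J774 replicate 1 (0.75). When only these groups were fitted, Mpeg1 and Srgn were called and Itgb2 and Ms4a6d were not, and without scaling Cybb was the 1 gene called.

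Raw 264 cells against preadipocyte lines had 2 of the 7 genes called higher, where 0.347% of all spots were. Fcer1g rose by 1.57 ± 0.18 (adjusted p = 2.3e-06), the smallest p of all 5760 spots in this comparison. Cybb rose by 1.13 ± 0.26 (adjusted p = 0.0351), but that value rests on Raw 264 replicate 1: without it Cybb had 0.44 (adjusted p = 0.162). Its call was also lost without 3T3-F442A (1.11), Ob1774 (1.18) or Hgfu (1.09), and neither gene was called without scaling. Itgb2 had 0.64 ± 0.17 (adjusted p = 0.115), and every Raw 264 sample exceeded every preadipocyte sample for 4 genes, Cybb, Itgb2, Fcer1g and Mpeg1, as for 2.55% of all spots.

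In J774 cells against the same lines, limma called 0 of the 7 genes, where 0.660% of all spots were called in either direction, and 2 genes had an unadjusted p under 0.05. These were Fcer1g with 0.74 ± 0.20 (adjusted p = 0.0806) and Itgb2 with 0.48 ± 0.20 (adjusted p = 0.31). Without Hgfu, Fcer1g was called with 0.84 (adjusted p = 0.0348). Both J774 samples exceeded every preadipocyte sample for 4 genes, Cybb, Itgb2, Fcer1g and Mpeg1, as for 8.32% of all spots.

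No gene of the set was called between the lines. For Raw 264 against J774 limma called 0 of 7, where 0.104% of all spots were called, and 2 had an unadjusted p under 0.05: Fcer1g with 0.83 ± 0.21 (adjusted p = 0.107) and Cybb with 0.80 ± 0.31 (adjusted p = 0.38). Without Raw 264 replicate 3, Fcer1g was called with 1.01 (adjusted p = 0.031), and without replicate 1 Cybb had 0.10. The intervals of the other genes ran from -0.54 at the lowest, for Srgn, to 0.68 at the highest, for Ms4a6d. All Raw 264 samples exceeded both J774 samples for 2 genes, Itgb2 and Fcer1g, as for 13% of all spots. Without scaling both of these differences turned negative (-0.56 and -0.19), while all spots shifted by a median of -0.75.

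Stroma-vascular cells are known to hold most of the fat depot's macrophages, and the adherent fraction was compared with the adipocytes of the same depot and with the preadipocyte lines. Against adipocytes limma called 0 of 7 genes, where 0.625% of all spots were called in either direction, and 1 gene had an unadjusted p under 0.05. That gene was Ms4a6d, with 0.57 ± 0.20 (adjusted p = 0.286), and all stroma-vascular samples lay above all adipocyte samples. The pairing of same-numbered samples was inferred from correlations in these data (0.259, 0.102 and 0.386). With the replicate block Ms4a6d rose by 0.57 ± 0.09 (adjusted p = 0.00651), where 2.71% of all spots were called higher. Ms4a6d was also called when only these groups were fitted (0.57 ± 0.10, adjusted p = 0.0193). With array weights it was called as well (0.58 ± 0.14, adjusted p = 0.0047). The 95% intervals without the block reached 0.70 for Cybb, 0.53 for Itgb2, 0.45 for Fcer1g, 0.30 for Mpeg1 and 0.57 for Srgn. Itgb2 was the other of 2 genes whose samples did not overlap, as for 9.17% of all spots, with 0.16 ± 0.18. Without scaling Itgb2 had -0.02. The adipocyte genes Retn and Pnpla2 fell in stroma-vascular cells with -0.89 ± 0.15 (adjusted p = 0.00119) and -0.63 ± 0.11 (adjusted p = 0.00245).

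Against the preadipocyte lines limma called 0 of 7 genes in stroma-vascular cells, where 0.191% of all spots were called in either direction, and 2 genes had an unadjusted p under 0.05. They were Srgn with 0.59 ± 0.18 (adjusted p = 0.272) and Ms4a6d with 0.52 ± 0.19 (adjusted p = 0.452). All 7 genes had positive values with a median of 0.28, against -0.01 over all spots, and for 5 genes every stroma-vascular sample exceeded every preadipocyte sample, as for 3.44% of all spots. Those genes were Cybb, Itgb2, Mpeg1, Srgn and Ms4a6d.

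**Figure D4:**
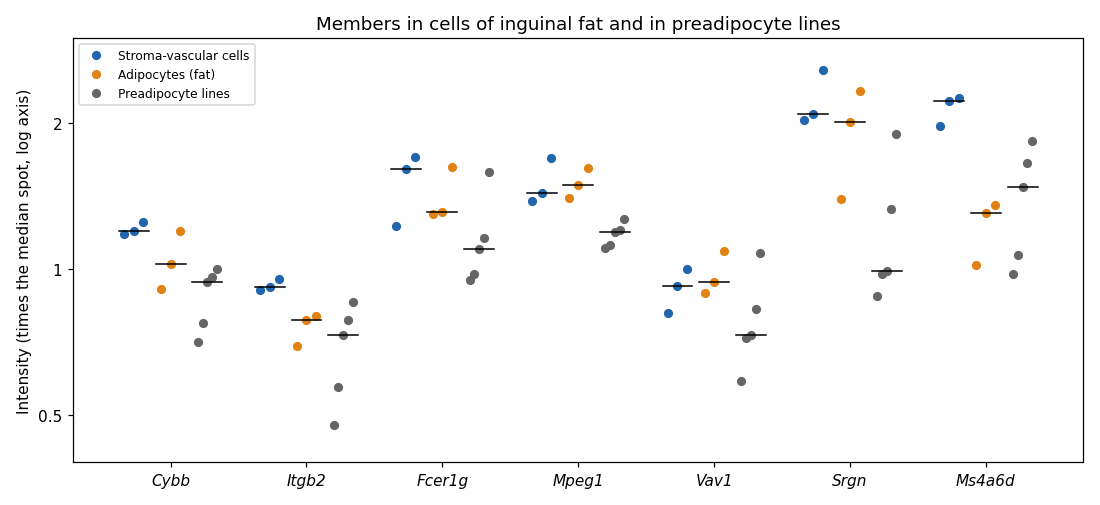
Intensity of the 7 genes in stroma-vascular cells (3 samples), adipocytes of fat (3) and preadipocyte lines (5), as multiples of the median spot on a log axis, with group medians as bars. Ms4a6d is at 1.97 to 2.26 in stroma-vascular cells against 1.02 to 1.36 in adipocytes, and Srgn at 2.03 to 2.57 against 0.881 to 1.90 in preadipocyte lines.

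Few markers of other cells were measured, and of the lymphocyte, mast cell and granulocyte, leukocyte and endothelial genes 0 were called in the 9 comparisons. Few of all spots were called as well, such as 0.278% higher in macrophages against stroma-vascular cells. In stroma-vascular cells against adipocytes 0.625% were called in either direction. With so few genes measured, 0 calls say little about other cells. The 3 lymphocyte genes measured of 14 looked for, Cd79b, Il7r and Cd4, summed to 4.05 to 5.39 in macrophages, 4.20 to 4.41 in stroma-vascular cells, 5.0 to 5.97 in adipocytes and 2.60 to 4.16 in preadipocyte lines. In Raw 264 they summed to 1.96 to 3.22 and in J774 to 3.16 to 4.27. Of these genes Cd79b had 2.13 to 3.60 in macrophages, 0.767 to 1.65 in Raw 264 and 1.71 to 2.22 in J774. It had 1.95 to 2.50 in stroma-vascular cells, 2.84 to 3.82 in adipocytes and 1.23 to 2.12 in preadipocyte lines. Its difference between macrophages and the lines was 0.65 ± 0.19 (adjusted p = 0.0522). The 2 mast cell and granulocyte genes measured of 18, Cma1 and Mcpt4, summed to 1.89 to 2.40 in macrophages, 2.21 to 2.42 in stroma-vascular cells, 2.11 to 2.53 in adipocytes and 1.77 to 2.04 in preadipocyte lines. The leukocyte gene Cd48 had 0.909 to 1.25 in macrophages, 0.859 to 1.15 in Raw 264 and 1.06 to 1.39 in J774. It had 0.835 to 1.14 in stroma-vascular cells, 0.793 to 1.02 in adipocytes and 0.463 to 0.961 in preadipocyte lines, so each of these groups overlapped the macrophages. The endothelial genes Cdh5 and Eng summed to 2.12 to 2.88 in stroma-vascular cells, 1.55 to 1.86 in adipocytes and 1.28 to 2.02 in preadipocyte lines. Their part in the levels of the 7 genes was not tested.

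Genes listed as related to the 7 were thinly covered, with 17 of 98 measured and 0 of the 8 listed with the NADPH oxidase. In macrophages against stroma-vascular cells and against preadipocyte lines 0 of 17 were called, where 0.278% and 0.556% of all spots were called higher. The medians of the 17 were 0.10 and 0.09. Against adipocytes and against the macrophage lines 1 of 17 rose, where 0.556% and 1.63% of all spots were called higher. It was the lysosomal protease gene Ctsb, with 0.55 ± 0.12 (adjusted p = 0.0143) and 0.40 ± 0.11 (adjusted p = 0.0326). Ctsb had 0.936 to 1.44 in macrophages, 0.628 to 0.862 over the samples of both lines and 0.50 to 0.693 in adipocytes. In Raw 264 cells against preadipocyte lines 1 of 17 rose, where 0.347% of all spots were called higher. That gene was Fermt3, which encodes the integrin activator kindlin of blood cells, with 0.62 ± 0.14 (adjusted p = 0.0351). It had 1.79 to 2.48 in Raw 264, against 0.898 to 1.44 in the preadipocyte lines, and in macrophages 1.41 to 2.58 without a call (0.56 ± 0.14, adjusted p = 0.0597). In the other 4 comparisons limma called 0 of 17, where 0.104% to 0.660% of all spots were called in either direction. The integrin alpha chain genes measured, Itgax and Itga4, and the MS4A genes Ms4a4b and Ms4a4c were called in none of the 9 comparisons.

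Over the 13 groups without ZIN40 cells lacking LIF, the group means of 6 genes followed each other, as a description of groups that share the same arrays. Pearson's r was 0.966 between Cybb and Itgb2, 0.930 between Cybb and Mpeg1, 0.928 between Mpeg1 and Srgn and 0.905 between Itgb2 and Ms4a6d. Fcer1g was further apart, at 0.622 to 0.812 with the other 5, and Vav1 had 0.0567 to 0.144 with all 6. Peritoneal macrophages had the highest group mean of each of these genes except Vav1 and Fcer1g. How far r rests on that group was not tested. Among 183 spots of single genes that span at least 1 on the log2 scale, the closest to Fcer1g was the chemokine gene Ccl9 (0.813), and Serpinb2, an inhibitor of plasminogen activation, was closest to Ms4a6d (0.940) and second closest to Srgn (0.848). The closest to Cybb and Itgb2 were each other, and Mpeg1 came second for both.

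Mpeg1 and Srgn occupy consecutive rows of the deposited table, 363 and 364, and how rows map to places on the filter is not given. The row before Mpeg1 is an unnamed spot at 10.2 in macrophages and 9.61 in preadipocyte lines. The row after Srgn, Nhp2, had 1.12 in macrophages and 1.26 in preadipocyte lines and was not called, and none of the other spots within 2 rows of any of the 7 genes was called in that comparison.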

How the data were processed

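The deposited values are linear spot intensities of 5760 spots in 40 samples. Per the labels' protocols, Tripure RNA was treated with DNase, cDNA carried 33P, filters came from Resgen and spots were read with Imagene; its version, any background correction and any scaling were not given in the sources used here. Median intensity per array ran from 941 to 132228, and the number of arrays limits the precision. Values were quantile normalized between arrays, and 36370, the 10th percentile, was added before taking log2. Levels are multiples of the median spot (52595). The 3T3-L1 samples were averaged, giving 4 lines. All 14 groups entered 1 two-sided fit with limma 3.58.1 in R 4.3.3 (25 residual degrees of freedom), tested on simulated data, with Benjamini-Hochberg adjustment over 5760 spots and calls at an adjusted p under 0.05. Figures used matplotlib 3.10.9 in Python 3.11.15.

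Platform annotation gave 3420 spots 1 gene symbol, 98 several and 2242 none; 3346 matched a current symbol in GRCm38.p6, used for names and promoters. The members, gene lists and tests were chosen with earlier results of these data known. All 7 members are named, whatever their result. Genes of related and marker lists are named where called, up to 3 per list and comparison, with the 2 closest patterns per member; marker genes and uncalled genes named beyond this were chosen after their values were seen. Same-numbered samples were treated as paired where deviations from group means correlated over 0.1 in every one of 3 or more pairs, which held only for stroma-vascular cells and adipocytes (0.259, 0.102 and 0.386). Alternatives were median or no scaling, a floor or 4 times the offset, subtraction of each array's 5th percentile, removal of a local trend, bright spots only, compared groups only, no arrays of ZIN40 cells without LIF, another variance model, array weights, averaged spots, separate 3T3-L1 samples, the replicate block and each sample left out.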

Additional observations from a re-analysis of the deposited data

How the results depend on the processing

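Of 1414 values recomputed under other settings, 1259 kept their direction and side of the threshold (counts: within 1.5 times), 30 counts of called members moved, 86 single-gene values crossed the threshold and 39 changed sign, none of the last a called value. The counts of called members were as follows, with calls among all spots in brackets. In macrophages against stroma-vascular cells (4 [26]) it was 2 [10] with median scaling, 1 [3] without scaling, 0 [0] after subtraction of the 5th percentile and 2 to 3 without 1 sample. Against adipocytes (6 [49]) it was 1 [6] without scaling and 3 [25] after subtraction. Against the macrophage lines (5 [167]) it was 3 [20] with median scaling, 1 [5] without scaling, 2 [48] after subtraction, 2 [144] in a fit of these groups alone and 2 [110] with the replicate block, and 3 to 5 without 1 sample. For Raw 264 against preadipocyte lines (2 [23]) it was 0 [0] without scaling, 1 [25] with 4 times the offset, 1 [8] with these groups alone and 1 [26] with the other variance model, and 1 to 2 without 1 sample. For J774 against these lines (0 [38]) it was 1 [70] after removal of a local trend, 1 [132] with array weights, 1 [55] with each preadipocyte sample its own replicate and 0 to 1 without 1 sample, and for Raw 264 against J774 (0 [6]) 0 to 1 without 1 sample. For stroma-vascular cells against adipocytes (0 [36]) it was 1 [112] with these groups alone, 1 [522] with array weights and 1 [231] with the replicate block, and against preadipocyte lines (0 [11]) 1 [44] with array weights. Array weights gave macrophage replicate 3 a weight of 7.83.

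Log2 fold changes that changed sign were these. Macrophages against stroma-vascular cells had Vav1 at 0.0179 with median scaling, 0.29 without scaling, 0.0683 with array weights and -0.0634 to 0.022 without 1 sample. Against the macrophage lines, Fcer1g had 0.0152 with median scaling, 0.28 without scaling, 0.12 with array weights and -0.17 to 0.11 without 1 sample, and Vav1 -0.0815 after removal of a local trend and -0.0177 to 0.0377 without 1 sample. For Raw 264 against preadipocyte lines Vav1 had -0.000152 with median scaling and -0.13 without scaling, and for J774 it had -0.00365 to 0.12 without 1 sample. For Raw 264 against J774, no scaling gave Cybb -0.18, Itgb2 -0.56, Fcer1g -0.19, Mpeg1 -0.63, Vav1 -0.77 and Ms4a6d -0.42, median scaling gave Vav1 -0.0155 and Srgn 0.0726, and array weights gave Mpeg1 -0.0197. Without 1 sample Mpeg1 had -0.0700 to 0.0984, Vav1 -0.024 to 0.0709 and Srgn -0.21 to 0.0899. For stroma-vascular cells against adipocytes, no scaling gave Cybb -0.0906, Itgb2 -0.0207, Fcer1g -0.17 and Srgn -0.0138. Mpeg1 had 0.0587 after removal of a local trend, 0.0201 with array weights and -0.0619 to 0.0373 without 1 sample, and Fcer1g -0.00019 to 0.16.

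Without scaling, all spots shifted by medians of 0.28, 0.0058, 0.44 and 0.20 for macrophages against stroma-vascular cells, adipocytes, preadipocyte lines and macrophage lines, -0.15 and 0.61 for Raw 264 and J774 against preadipocyte lines, -0.75 between those lines, and -0.27 and 0.17 for stroma-vascular cells against adipocytes and preadipocyte lines. The cause of the other changes was not tested. In the macrophage comparisons same-numbered samples were not treated as paired. The replicate block there left Itgb2 uncalled against stroma-vascular cells and adipocytes and called Srgn against stroma-vascular cells (adjusted p = 0.0361). Against the macrophage lines it left Cybb (adjusted p = 0.0662), Itgb2 (0.236) and Ms4a6d (0.17) uncalled. Same-numbered Raw 264 and J774 samples correlated at -0.0313 and -0.20. Itgb2 and Vav1 have no value with bright spots only, because their spots were below the median. No fit blocked on the filter membrane was made, since no membrane is named.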
